A study of Mus musculus with 20 samples.

Results

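The genes described are 40 cell cycle and DNA replication genes, 19 of S phase and its entry and 21 of G2 and mitosis, measured in natural killer (NK) cells from mouse spleen. They were chosen by name, with earlier results of these data known. Each was represented by its brightest array probe among those well above background on at least 5 of 20 arrays. Of the 40, 38 could be tested among 17481 genes in all, which were 17 of the 19 S phase genes and 21 of the 21 G2/M genes. Cdk2, the kinase partner of the E-type cyclins, was well above background on 0 of 20 arrays with either of its probes, and the probes of Ccne2, a cyclin E, were so on 0 and 2 arrays.

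RNA came from 20 male C57BL/6 mice, 5 per group and 1 array per mouse. All mice were dosed daily by gavage for 14 days. The control group received water, the ptaquiloside group 5.3 mg/kg of ptaquiloside, the selenium group 1.3 mg/kg of selenium, and the combined group both compounds at these doses. Ptaquiloside is a toxin of bracken, a fern, and damages DNA. Selenium is a nutrient that cells need to make selenoproteins such as glutathione peroxidases. The NK cells were left unlabelled while other spleen cells were held back on magnetic columns, so any cell that escaped removal would add its RNA. The series asks how each compound, alone and together, alters gene expression in these cells.

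Cells that divide express these genes in order. As G1 ends, cyclin E and the E2F factors switch on the genes that license origins (Cdc6, Cdt1, the Mcm2 to Mcm7 helicase) and supply nucleotides (Rrm1, Rrm2, Tyms, Tk1). In G2 and mitosis cyclins A and B with Cdk1, the Aurora and Polo kinases, the spindle motors and the ubiquitin ligase factors Cdc20 and Ube2c follow. Resting splenic NK cells cycle little, and precursors of blood cells, which the mouse spleen also holds, are strong expressers of the whole programme. In RNA from a whole cell preparation, fewer cells of a type and less RNA per cell cannot be told apart.

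Many cell cycle promoters carry short words tied to the phase, such as E2F words in S phase genes and CHR words beside CCAAT boxes in G2/M genes. The RefSeq table (GRCm38.p6) held promoters for 16 of the 19 S phase genes and 16 of the 21 G2/M genes. It was searched, on both strands and over the 250 bases before the gene start, for TTTCGCGC, TTTGGCGC, TTTCCCGC and TTTGCCGC (E2F), for TTTGAA and TTCGAA (CHR) and for CCAAT. An E2F word stood in 5 of 16 S phase promoters (31.2%), in 1 of 16 G2/M promoters (6.25%) and in 2.16% of 27025 genes with a promoter. A CHR word stood in 3 S phase promoters (18.8%), 8 G2/M promoters (50%) and 19.6% of all genes, and CHR together with CCAAT in 3, in 8 and in 7% of all genes. A match is only a run of letters and shows no binding. Ccne2, Gmnn, Mcm4, Ccna2, Stmn1, Aurkb, Kif20a and Tpx2 had no entry.

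The 250 bases before the start follow for 5 S phase genes and 2 G2/M genes. Cdc6, Mcm5, Mcm6 and Mcm7 were picked because they hold an E2F word, which only Cdk2 among the other S phase promoters does, and Mki67 and Top2a because they hold CHR words. Ccne1 is shown as a member with none of the words, as are Cdt1, E2f1, Tyms, Tk1, Birc5 and Nusap1. The sequences run 5′ to 3′, with every searched word in capitals, as read on the gene's strand or as its reverse complement. In Mcm5 and Mcm6 a pair of E2F words overlap on opposite strands, and Mcm7 is shown for 1 of its 2 listed starts, the other having a CCAAT box and no E2F or CHR word.
Ccne1, chr7:38107491-38107740, minus strand: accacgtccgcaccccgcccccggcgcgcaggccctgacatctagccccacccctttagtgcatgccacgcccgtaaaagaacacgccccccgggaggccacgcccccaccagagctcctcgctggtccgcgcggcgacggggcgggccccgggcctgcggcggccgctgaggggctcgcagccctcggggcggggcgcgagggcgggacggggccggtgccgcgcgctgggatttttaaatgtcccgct
Cdc6, chr11:98907901-98908150, plus strand: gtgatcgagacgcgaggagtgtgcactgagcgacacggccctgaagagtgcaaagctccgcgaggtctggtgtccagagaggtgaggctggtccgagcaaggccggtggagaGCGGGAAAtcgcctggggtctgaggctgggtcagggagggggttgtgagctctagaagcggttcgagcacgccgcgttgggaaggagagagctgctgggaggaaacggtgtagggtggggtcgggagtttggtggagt
Mcm5, chr8:75109259-75109508, plus strand: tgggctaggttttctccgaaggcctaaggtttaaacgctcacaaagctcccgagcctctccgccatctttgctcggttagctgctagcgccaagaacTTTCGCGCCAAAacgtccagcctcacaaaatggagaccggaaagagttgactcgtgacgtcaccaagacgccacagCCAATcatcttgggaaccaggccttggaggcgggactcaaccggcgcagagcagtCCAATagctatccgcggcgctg
Mcm6, chr1:128359706-128359955, minus strand: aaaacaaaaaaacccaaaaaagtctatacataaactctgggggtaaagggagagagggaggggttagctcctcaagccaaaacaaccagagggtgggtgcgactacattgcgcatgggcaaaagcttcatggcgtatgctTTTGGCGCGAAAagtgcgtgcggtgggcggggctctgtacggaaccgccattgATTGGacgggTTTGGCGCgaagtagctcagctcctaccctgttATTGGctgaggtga
Mcm7, chr5:138171884-138172133, minus strand: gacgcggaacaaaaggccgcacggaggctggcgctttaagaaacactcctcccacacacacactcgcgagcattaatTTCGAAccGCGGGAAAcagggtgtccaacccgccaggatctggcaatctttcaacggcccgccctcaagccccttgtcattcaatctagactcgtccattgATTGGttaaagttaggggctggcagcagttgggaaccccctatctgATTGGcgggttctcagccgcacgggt
Mki67, chr7:135716380-135716629, minus strand: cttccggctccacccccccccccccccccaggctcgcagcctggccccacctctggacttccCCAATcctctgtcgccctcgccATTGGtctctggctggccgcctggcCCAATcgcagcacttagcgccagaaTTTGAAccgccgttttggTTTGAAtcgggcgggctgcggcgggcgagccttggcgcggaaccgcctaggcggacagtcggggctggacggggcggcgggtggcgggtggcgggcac
Top2a, chr11:99024190-99024439, minus strand: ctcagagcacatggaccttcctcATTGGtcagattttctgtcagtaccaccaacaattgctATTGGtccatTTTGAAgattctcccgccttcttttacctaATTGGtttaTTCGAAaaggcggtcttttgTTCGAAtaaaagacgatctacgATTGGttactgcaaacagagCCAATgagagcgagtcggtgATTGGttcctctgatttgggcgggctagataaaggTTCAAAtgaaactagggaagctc
Cdc6, a loader of the helicase, has an E2F word 138 bases before the start, and Mcm6 has a separate E2F word at 47 bases. Top2a, the topoisomerase that untangles replicated chromosomes, has CHR words from 179 to 23 bases and CCAAT boxes from 227 to 58 bases before it, and Mki67, the gene of the proliferation antigen Ki-67, has CHR words at 116 and 98 bases.

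Levels are given as log2 of the processed spot signal minus the array's own 75th percentile, so 0 is the signal of that percentile and 1 unit is a doubling. Ptaquiloside mouse 4 gave a weak array, with a 75th percentile of 10.5 scanner units where the other 19 had 45.5 to 133. The 45.5 was that of combined-treatment mouse 5, and the rest had 75.3 to 133. On the array of ptaquiloside mouse 4 only 36.3% of spots exceeded background well, where the others had 51.7% to 60.8%. Many of the values that use this array are also given without it. The genes of the F-test, the within-slide comparisons and the counts of marker genes by group are not. Arrays with the same mouse number lay on 1 slide, and each group always took the same position on it. The NK genes Ncr1 and Eomes were well above background on all 20 arrays, and so was Cd3e of T cells. Over the 17481 genes limma called 0 at an adjusted p under 0.05 in any of the comparisons, so no member passed and the differences below are described as values.

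In control mice the members were detected throughout, and each of the 38 tested was well above background on all 5 control arrays. Their control means ran from -2.55 for Cdc45, a part of the replicative helicase, to 5.69 for the helicase subunit Mcm6 among S phase genes. Among G2/M genes they ran from -3.17 for the spindle motor Kif11 to 4.68 for Stmn1, which destabilises microtubules. Probes differ in brightness, so these levels do not rank the genes' transcripts. Outside control, 12 members were not well above background on 1 or 2 ptaquiloside arrays, Cdc45 and Cdk1 also on 1 combined-treatment array and Aurkb also on 1 selenium array. The spread between control mice was smallest for Mcm6 (SD 0.16, n = 5) and Aurka (0.23) and largest for Tyms (0.61) and Aurkb (0.79). It was 0.20 for Pcna and 0.24 for Cdt1, the clamp of the polymerases and a licensing factor.

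After selenium alone, all 38 members had a higher mean than in control, where 52.7% of all 17481 genes did. The members vary together between arrays, so counts of members, here and below, are not counts of independent genes. The median difference on the log2 scale was 0.66 over the 17 S phase genes and 0.67 over the 21 G2/M genes, against 0.01 over all genes. Without adjustment 3 members had p under 0.05 in limma, all higher, where 1.05% of all genes did in either direction and 0.4% in the upward one. With the slide as a block 12 members did, beside 1.89% of all genes. The 3 without the block were Ccne1, Mcm7 and Cdc6, each with an adjusted p of 1.00 in limma. In 0 of the 38 did the 5 selenium mice lie wholly above the 5 control mice, which held for 0.223% of all genes.

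Ccne1, cyclin E1, which starts S phase with Cdk2, read 0.04, 0.74, -0.06, -0.50 and -0.28 in control mice 1 to 5 and 0.80, 0.99, 1.12, 0.98 and -0.41 in selenium mice 1 to 5. Selenium mice 1 to 4 were above every control, and selenium mouse 5 was below 4 of the 5. The difference was 0.71 ± 0.31 (SE, n = 5 per group). Its probe lies at chr7:38882937-38882960 on mm9.

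Mcm7 of the helicase read 3.29, 3.82, 3.05, 3.02 and 3.08 in control and 3.93, 4.07, 4.07, 3.81 and 2.94 after selenium. Only control mouse 2 reached the range of selenium mice 1 to 4, and selenium mouse 5 was the lowest of the 10. The difference was 0.51 ± 0.24, measured by a probe at chr5:138605925-138605984. Cdc6 read -1.86, -1.46, -2.12, -2.78 and -2.31 in control and -1.33, -0.84, -1.09, -0.91 and -2.71 after selenium, a difference of 0.73 ± 0.34. Here too the first 4 selenium mice lay above all controls and the remaining mouse near the bottom. Cdc45 differed by 0.76 ± 0.38 and Mcm3 by 0.58 ± 0.29.

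By role, the S phase genes spread from 0.10 to 0.84. The enzymes of nucleotide supply were 0.84 for Rrm2 and 0.54 for Rrm1, the subunits of ribonucleotide reductase, 0.72 for thymidylate synthase Tyms and 0.71 for thymidine kinase Tk1. The other helicase subunits were 0.70 for Mcm5, 0.38 for Mcm6, 0.27 for Mcm2 and 0.26 for Mcm4. The transcription factor E2f1 was 0.67 and geminin, Gmnn, which blocks relicensing, 0.66. Pcna (0.23) and Cdt1 (0.10) differed least, with standard errors of 0.47 and 0.45. These errors rest on the spread shared by the 4 groups. It includes the weak array of ptaquiloside mouse 4, which read 1.21 for Pcna and 1.72 for Cdt1. Between control mice the SDs were 0.20 and 0.24. Mcm5, Mcm6 and Gmnn were higher in the selenium mouse than in the control mouse of the same slide on 5 of 5 slides, where 5.37% of all genes were.

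The G2/M member with the smallest p was Cdca8, borealin of the chromosomal passenger complex. Control mice 1 to 5 read 1.99, 2.54, 1.5, 0.95 and 1.48, and selenium mice 2.80, 3.17, 2.83, 2.63 and 0.98. The difference was 0.79 ± 0.39. The same 4 selenium mice stood above all controls, and mouse 5 stood at the level of the lowest control.

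Top2a read -0.37, -0.06, -0.82, -1.38 and -1.03 in control and 0.43, 0.52, 0.39, 0.26 and -1.25 after selenium, a difference of 0.80 ± 0.45. Birc5, survivin of the same passenger complex, differed by 0.83 ± 0.44, Tpx2, which activates Aurora A on the spindle, by 0.78 ± 0.42, and the spindle protein Nusap1 by 0.81 ± 0.44. In each of these genes selenium mouse 5 was below the control mean, and the other 4 selenium mice were above it.

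Among the other mitotic genes the cyclin-dependent kinase Cdk1 was 0.82 higher and its cyclins Ccnb2, Ccna2 and Ccnb1 were 0.77, 0.67 and 0.45 higher. Cdca3, a trigger of mitotic entry, was 0.84 higher and Mki67 0.78. The passenger kinase Aurkb was 0.72 and the spindle kinases Aurka and Plk1 0.45 and 0.39. Stmn1 was 0.66, the spindle motors Kif20a and Kif11 0.60 and 0.49, and the ligase factors Ube2c and Cdc20 0.62 and 0.39. The checkpoint genes Bub1b and Bub1 were 0.50 and 0.48. Aurka alone among the 21 was higher on 5 of 5 slides.

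**Figure D1:**
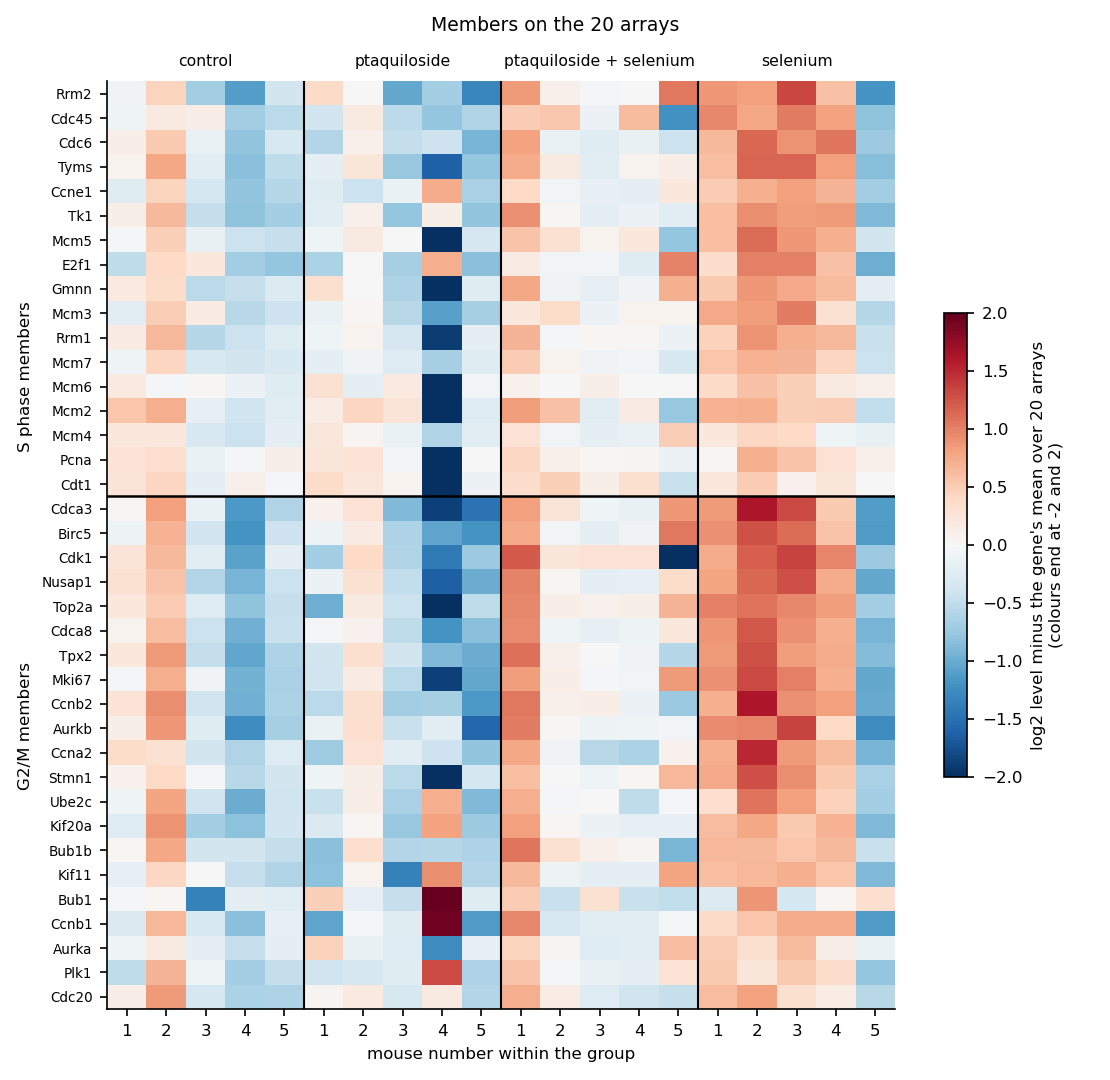
Level of each tested member (rows) on each of the 20 arrays (columns, by group and mouse number) as log2 minus the gene's mean over the 20 arrays, with S phase genes above and G2/M genes below, each ordered by the difference between selenium and control. Selenium mice 1 to 4 and the combined-treatment mouse 1 are high in most rows, selenium mouse 5 is low in most, and the column of ptaquiloside mouse 4 mixes strong highs and lows.

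Selenium mouse 5 was the lowest of its group in 36 of the 38 members, and in 35 members the other 4 selenium mice all lay above the control mean. Without that mouse the medians were 0.84 for S phase and 1.04 for G2/M genes, and 26 members had an unadjusted p under 0.05, beside 2.86% of all genes. Without control mouse 2, the highest control, 17 members and 1.71% of all genes did, and without ptaquiloside mouse 4, which enters only the shared spread, 12 members and 2.6% did. The count was 0 without each of control mice 3, 4 and 5 or of selenium mice 1 to 4. It was 1 without combined mouse 2, and 2 without control mouse 1, ptaquiloside mouse 1 or 3, or combined mouse 3 or 4. In the fits with a count of 0, between 0.606% and 1.22% of all genes passed. Background correction by normexp, in place of the scanner's own, gave medians of 0.39 and 0.33 and 1 such member, beside 0.372% of all genes. Under none of these fits did a member reach an adjusted p under 0.05.

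**Figure D2:**
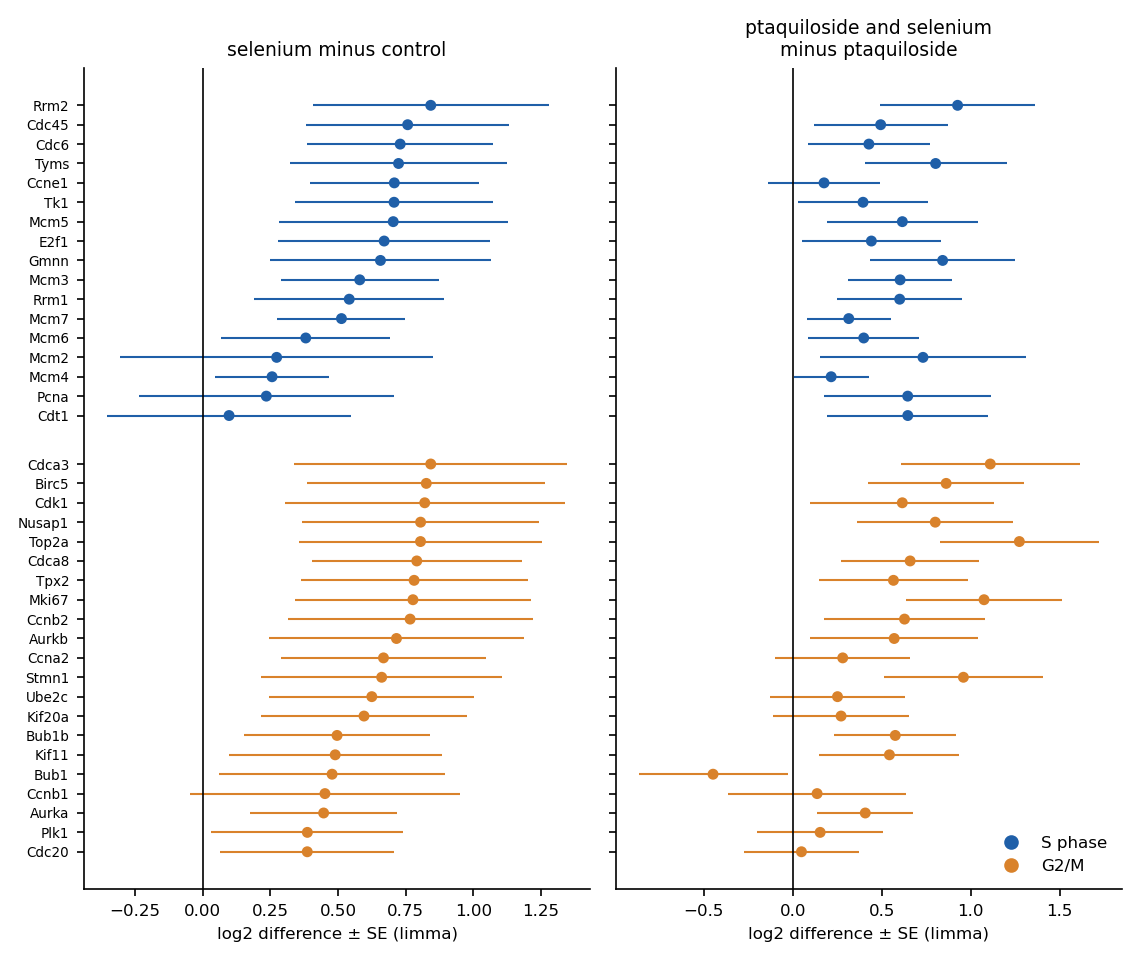
Difference of each tested member on the log2 scale (points, with 1 SE from limma as lines, n = 5 mice per group) between selenium and control on the left and between the combined treatment and ptaquiloside on the right, S phase genes in blue above and G2/M genes in orange below. On the left all 38 points lie right of 0, between 0.10 and 0.84, and on the right 37 do, with Bub1 at -0.45.

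When selenium was given with ptaquiloside, 37 of 38 members were higher than after ptaquiloside alone, where 51% of all genes were. The medians were 0.60 for S phase and 0.57 for G2/M genes, against 0.01 for all genes. Unadjusted, 5 members had p under 0.05, all higher, where 2.43% of all genes did in either direction and 1.2% upward. With the slide as a block 11 members did, beside 4.1% of all genes. The 5 without the block were Top2a, Mki67, Cdca3, Stmn1 and Rrm2, and their adjusted p in limma were 0.821 or above.

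Top2a read -1.54, -0.39, -1.0, -3.25 and -1.08 in ptaquiloside mice 1 to 5 and 0.39, -0.44, -0.49, -0.46 and 0.10 in the combined group, a difference of 1.27 ± 0.45 (SE). Ptaquiloside mouse 4 was far below the rest, and without it the difference was 0.82. Mki67 read 2.35, 2.90, 2.21, 0.88 and 1.72 after ptaquiloside and 3.58, 2.87, 2.70, 2.68 and 3.60 after both, a difference of 1.08 ± 0.44, or 0.79 without that mouse. Ptaquiloside mouse 2 overlapped the combined group in both genes. Cdca3 differed by 1.11 ± 0.50 (0.84 without ptaquiloside mouse 4) and Stmn1 by 0.96 ± 0.45 (0.45 without it). Each of these genes has another tested probe. Over all arrays it gave 0.72 for Top2a, 1.06 for Mki67, 0.18 for Cdca3 and 0.81 for Stmn1.

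Of the S phase genes, Rrm2 read -0.55, -0.93, -1.95, -1.60 and -2.24 after ptaquiloside and -0.07, -0.83, -0.95, -0.92 and 0.12 after both compounds. The combined mouse was the higher one on 5 of 5 slides, where 2.08% of all genes were, and the difference was 0.93 ± 0.44, or 0.89 without ptaquiloside mouse 4. Gmnn differed by 0.84 ± 0.41 and Mcm3 by 0.60 ± 0.29, and Mcm3 was also higher on all 5 slides. Without ptaquiloside mouse 4 Gmnn differed by 0.37 and Mcm3 by 0.45, the medians were 0.37 for S phase and 0.52 for G2/M genes, and 14 of 17 and 20 of 21 genes were higher. Bub1, the lone member with a lower mean, was at -0.45 ± 0.42 with that mouse and at -0.01 without it.

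The count of 5 members at an unadjusted p under 0.05 also moved with single arrays. It was 11 without ptaquiloside mouse 2 and 9 without ptaquiloside mouse 1, with 6.16% and 4.3% of all genes. It was 10 without selenium mouse 5, with 2.41% of all genes. It was 2 without ptaquiloside mouse 3 or 4 (2.52% and 2.77% of all genes) and 1 without combined mouse 1 (2.46%). Without control mouse 1, 3 or 5, or selenium mouse 1 or 4, it was 3, with 2.05% to 2.2% of all genes. With normexp it was 5, with 0.664% of all genes, and the G2/M median was 0.18. Adjusted calls among members numbered 0 throughout.

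After ptaquiloside alone the members were lower on average. Only 6 of 38 had a higher mean than in control, where 49.7% of all genes did, and the medians were -0.34 for S phase and -0.25 for G2/M genes. With limma 0 members had an unadjusted p under 0.05, where 1.5% of all genes did, and their adjusted p were 0.801 or above. With the slide as a block 0 members did, beside 2.64% of all genes. Top2a, given above for each mouse, differed by -0.72 ± 0.45, and Stmn1 by -0.63 ± 0.45. Top2a was lower on all 5 slides, where 1.77% of all genes were, and so were 5 other members.

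Pcna read 4.70, 4.77, 4.29, 4.38 and 4.55 in control and 4.68, 4.70, 4.37, 1.21 and 4.44 after ptaquiloside. Apart from ptaquiloside mouse 4, which was far below, the ptaquiloside mice lay inside the control range. The difference of -0.66 ± 0.47 became 0.01 without that array. Cdt1 likewise went from -0.60 ± 0.45 to 0.02, Mcm3 from -0.37 ± 0.29 to -0.22, Stmn1 to -0.12 and Top2a to -0.27. Bub1, a spindle checkpoint kinase and the member with the smallest p here, was higher by 0.69 ± 0.42 and by 0.25 without that array. Without that array the S phase median was -0.06, with 7 of 17 genes higher, and the G2/M median -0.22, with 2 of 21 higher. With other single arrays left out the G2/M median ran from -0.44 (control mouse 4) to -0.05 (control mouse 2).

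The combined treatment compared with control gave 37 of 38 members higher, where 54.5% of all genes were, with medians of 0.20 for S phase and 0.32 for G2/M genes. No member had an unadjusted p under 0.05 in limma, where 0.229% of all genes did, nor with the slide as a block, where 0.406% did. Rrm2 stood at 0.76 ± 0.44, its combined-group values running from -0.95 to 0.12 and its control values from -2.03 to -0.48. E2f1 was at 0.43 ± 0.39, Ccne1 at 0.34 ± 0.31, Birc5 at 0.58 ± 0.44, Top2a at 0.55 ± 0.45 and Mki67 at 0.53 ± 0.44. Combined-treatment mouse 1 was among the 5 highest of the 20 arrays in 32 of the 38 members. Without it the medians were 0.12 and 0.18, and without control mouse 2 they were 0.37 and 0.52. In limma 1 member had an unadjusted p under 0.05 without control mouse 2 or selenium mouse 5. With each array left out in turn, between 26 and 105 of all 17481 genes did.

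Against selenium alone, the combined treatment had 0 of 38 members higher, where 50.1% of all genes were, with medians of -0.34 and -0.30. Unadjusted, 0 members had p under 0.05 in limma, where 0.583% of all genes did. Cdc45, Mcm5 and Mcm6 were lower on 5 of 5 slides, where 2.48% of all genes were. Cdc6 differed by -0.64 ± 0.34, Mcm7 by -0.35 ± 0.24 and Cdc45 by -0.48 ± 0.38. Ccna2, cyclin A2, differed by -0.64 ± 0.38, Cdk1 by -0.70 ± 0.52 and Ccnb2 by -0.52 ± 0.45. Combined mouse 5 was the lowest of its group in Cdk1 (-3.65) and Cdc45 (-3.55). Cdk1 was at -0.199 and Cdc45 at -0.161 with that mouse left out, and at -1.06 and -0.821 with selenium mouse 5 left out. The lower Cdc45 on slide 5 rests on these same arrays, -3.55 against -3.15. Without selenium mouse 5 the medians were -0.56 and -0.64 and 12 members had an unadjusted p under 0.05, beside 1.45% of all genes. With combined mouse 1 left out instead, 2 did (0.898% of all genes), with ptaquiloside mouse 4 left out 1 did (1.69%), and with the slide as a block 1 did (1.13%).

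Whether selenium acted differently with and without ptaquiloside was tested as an interaction. It was positive in 16 of 38 members, where 51.4% of all genes were, with a median of 0.02 for S phase and -0.14 for G2/M genes and 0 members at an unadjusted p under 0.05 in limma (1.2% of all genes), and 0 with the slide as a block (2.09% of all genes). The smallest p belonged to Bub1 (-0.93 ± 0.59) and Ccne1 (-0.53 ± 0.44). Cdt1 (0.55 ± 0.64), Top2a (0.47 ± 0.63), Cdc20 (-0.34 ± 0.45) and Cdc6 (-0.30 ± 0.49) came next in their phases. With 1 array left out the S phase median ran from -0.29 to 0.11 and the G2/M median from -0.51 to 0.05, so neither kept its sign. Without ptaquiloside mouse 4 Cdt1 was at -0.08 and Top2a at 0.02, while the S phase median of -0.29 is the one without it.

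For any difference among the 4 groups, 5 members had an unadjusted p under 0.05 in limma's F-test, where 0.961% of all genes did. They were Top2a, Mcm3, Mki67, Cdc6 and Tyms. Adjusted over all genes, each was at 1.00. With the slide as a block 18 members had an unadjusted p under 0.05, beside 2.1% of all genes. With each array left out in turn the member count ran from 1 (without ptaquiloside mouse 5) to 25 (without selenium mouse 5). Over the same fits between 107 and 397 of all 17481 genes passed. With normexp 3 members did, beside 0.206% of all genes.

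A score per array was formed for each phase as the mean, over its genes, of the level minus the gene's mean over the 20 arrays. The S phase score averaged -0.12 ± 0.38 in control, -0.43 ± 0.56 after ptaquiloside, 0.12 ± 0.25 after both and 0.43 ± 0.54 after selenium (SD, n = 5). The G2/M score averaged -0.19 ± 0.54, -0.41 ± 0.36, 0.13 ± 0.40 and 0.46 ± 0.72 in the same order. Without mouse 4 the ptaquiloside group averaged -0.20 ± 0.26 for S phase and -0.38 ± 0.41 for G2/M genes (SD, n = 4). All neighbouring groups overlapped in both scores. Over all 38 members the control mice scored 0.04, 0.54, -0.29, -0.68 and -0.40, and the selenium mice 0.61, 0.93, 0.80, 0.56 and -0.66. Ptaquiloside mice scored -0.20, 0.11, -0.45, -0.88 and -0.67, and the combined group 0.70, 0.07, -0.08, -0.07 and 0.01.

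**Figure D3:**
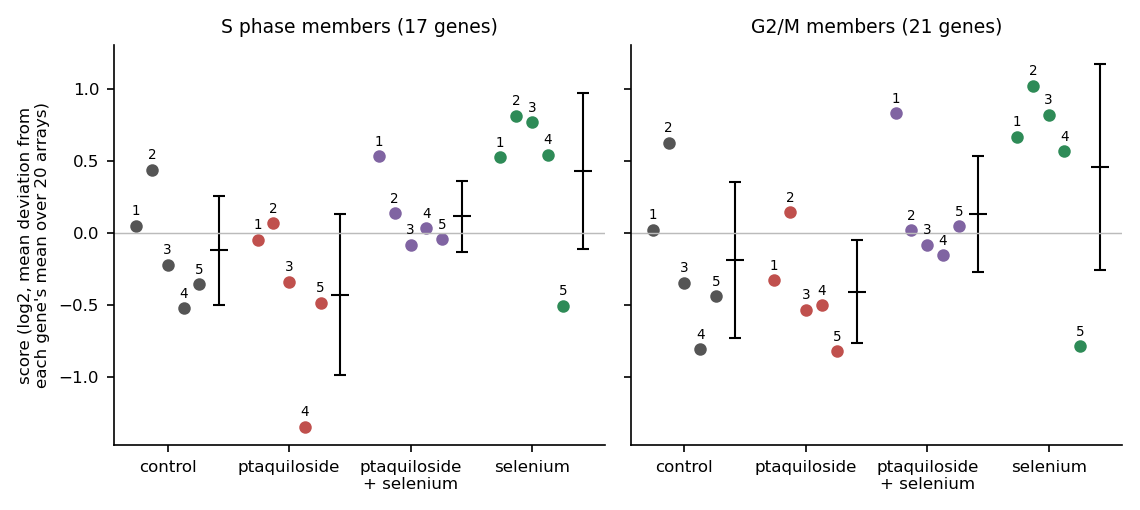
S phase score (left) and G2/M score (right) of each mouse by group, in log2 units around each gene's mean over 20 arrays; points carry the mouse number and black bars give mean ± SD of 5 mice. Selenium mice 1 to 4 lie above all controls, apart from mouse 4 (0.57) under control mouse 2 (0.63) in the G2/M panel, and selenium mouse 5 lies with the lowest controls.

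Within slides the score over all members was higher after selenium than in control on 4 of 5 slides, by 0.57, 0.39, 1.09 and 1.24, with -0.26 on slide 5. Between the combined treatment and ptaquiloside it was higher on 4 of 5 slides, by 0.90, 0.37, 0.81 and 0.68, with -0.04 on slide 2. Ptaquiloside was below control on all 5 slides, with differences from -0.43 to -0.16. Slide 4 holds the weak array of ptaquiloside mouse 4. Its -0.20 joined -0.83 in the S phase score and 0.31 in the G2/M score, so the G2/M score was not lower on every slide.

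The phases tracked each other across arrays. The S phase and G2/M scores had a Pearson r of 0.89 (Spearman 0.94) over 20 arrays, and 0.98 (0.95) over 19 without ptaquiloside mouse 4. The arrays share slides and scaling, so these r are descriptions. S minus G2/M averaged 0.07 ± 0.17 in control, -0.02 ± 0.49 after ptaquiloside, -0.02 ± 0.19 after both and -0.03 ± 0.19 after selenium. Without mouse 4 the ptaquiloside group was at 0.18 ± 0.18 (n = 4). The array of ptaquiloside mouse 4 stood apart at -0.85, with Cdt1, Mcm2, Mcm5, Mcm6 and Pcna far down and Ccnb1, Plk1 and Bub1 up.

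Over the other 19 arrays, single S phase genes had a median r of 0.85 with the mean of the other S phase genes and also 0.85 with the G2/M score. For G2/M genes these were 0.93 with their own phase and 0.91 with the other. Cdca8 (0.99), Tyms (0.98) and Tk1 (0.98) followed their phase most closely. Cdt1 (0.52), Mcm6 (0.62) and Mcm4 (0.70) were the loosest S phase genes, and they also varied little between arrays, with SDs of 0.24, 0.22 and 0.27.

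Bub1 had the lowest r of all, 0.29. Its other tested probe gave -0.24 rather than 0.69 for ptaquiloside against control, while for selenium against control the probes gave 0.59 and 0.48. Of 13 members with several tested probes, the signs differed between probes in 0 for selenium against control and in 7 for ptaquiloside against control.

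In the wider cell cycle lists, too, most means were higher after selenium, against 52.7% of all genes higher and 1.05% at an unadjusted p under 0.05. Of 47 other replication genes (origin recognition, polymerases, clamp loaders) 43 were higher than control with a median of 0.36, and 1 had an unadjusted p under 0.05, the histone chaperone gene Chaf1a (0.75 ± 0.28). The helicase factor Mcm10 was at 0.86 ± 0.42 and the exonuclease Exo1 at 0.72 ± 0.36. Of 40 other mitotic genes 36 were higher, with a median of 0.54, and 4 had an unadjusted p under 0.05. The condensin subunit Ncaph (0.79 ± 0.28) was higher on all 5 slides, and Kif22 (0.68 ± 0.31) and Cdca5 (0.83 ± 0.37) came next.

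The regulators upstream showed smaller differences. Of 31 genes of D cyclins, E2F and pocket proteins and inhibitors, 23 were higher after selenium, with a median of 0.17. Of all genes 52.7% were higher, and 1.05% had an unadjusted p under 0.05 in limma. The repressors E2f7 (0.96 ± 0.43) and E2f8 (0.76 ± 0.37), themselves switched on in S phase, and the pocket protein Rbl1 (0.36 ± 0.29) had the smallest p of the list, and E2f7 alone had an unadjusted p under 0.05. The D cyclins Ccnd1, Ccnd2 and Ccnd3 were at 0.16 ± 0.35, 0.53 ± 0.45 and 0.39 ± 0.51. The inhibitors Cdkn1a (p21), Cdkn1b (p27) and Cdkn2c (p18) were at 0.39 ± 0.48, -0.04 ± 0.30 and 0.23 ± 0.21, and Myc at 0.33 ± 0.59. None of these 3 lists held a gene with an adjusted p under 0.05.

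The member score was set beside markers of other spleen cells on the 19 arrays without ptaquiloside mouse 4. With the score of 18 neutrophil markers its r was 0.86 (Spearman 0.92), 0.81 as deviations from group means and 0.88 as deviations from slide means. With 16 erythroid markers it was 0.67 (0.62), 0.74 and 0.54 in the same order. Without the 2 arrays farthest from the median of the marker score, r was 0.87 for neutrophil and 0.59 for erythroid markers. The r was higher with neutrophil than with erythroid markers in 16 of 17 S phase and 20 of 21 G2/M genes. For other lists it was 0.75 (progenitor), 0.61 (basophil and mast cell), 0.53 (NK), 0.27 (platelet), 0.13 (dendritic), 0.04 (B cell), 0.04 (plasma cell), -0.28 (T cell) and -0.57 (macrophage and monocyte). As deviations from slide means these were 0.67, 0.47, 0.19, 0.05, -0.30, -0.21, -0.14, -0.30 and -0.43 in the same order.

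**Figure D4:**
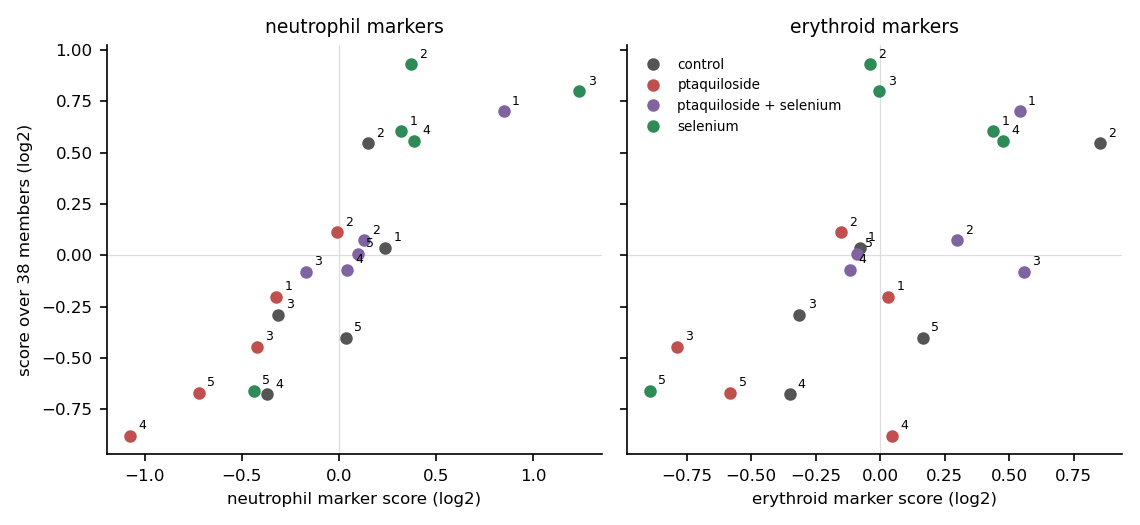
Score over the 38 members (vertical, log2) against the neutrophil marker score (left, 18 genes) and the erythroid marker score (right, 16 genes) for the 20 arrays, coloured by group and numbered by mouse. Points follow a rising line on the left (r = 0.88 over 20 arrays) and scatter more on the right (r = 0.61).

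The 18 neutrophil markers differed widely in how they followed the member score. Mpo, Elane, Ctsg and Prtn3, the peroxidase and proteases of azurophil granules, had r of 0.93, 0.91, 0.90 and 0.83, and Ms4a3, a membrane protein of myeloid precursors, had 0.88. The secreted lectin Fcnb was at 0.84, the calcium-binding S100a8 and S100a9 at 0.82 and 0.77, and Lcn2, Camp, Ltf and Ngp of later granules at 0.78, 0.76, 0.71 and 0.66. Retnlg (0.23), the chemokine receptor Cxcr2 (0.10), Chil3 (0.05), the metalloproteinases Mmp9 (-0.10) and Mmp8 (-0.40) and the G-CSF receptor Csf3r (-0.83) had low or negative r. The genes were grouped in this way after the values were seen.

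The 16 erythroid markers were spread as well. Ermap (0.85), Tspo2 (0.84), Ank1 (0.79), Kel (0.77), Klf1 (0.72), Hemgn (0.72), Car1 (0.70) and the transferrin receptor Tfrc (0.55) had r above 0.5. Gata1 was at 0.49, Cldn13 at 0.34, Car2 at 0.21 and Slc25a37 at 0.05. The globin genes Hba-a1 (-0.09) and Hbb-bt (0.05), the haem enzyme Alas2 (0.04) and the anion exchanger Slc4a1 (-0.06) were near 0. Hbb-b1 is listed under Hbb-bt here. Of 9 progenitor markers Cd34 (0.85), Gfi1b (0.83), Tal1 (0.74) and Sox4 (0.72) were high, Gata2 (0.25), Myb (0.19) and Meis1 (0.19) low, and Kit (-0.30) and Flt3 (-0.31) negative.

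**Figure D5:**
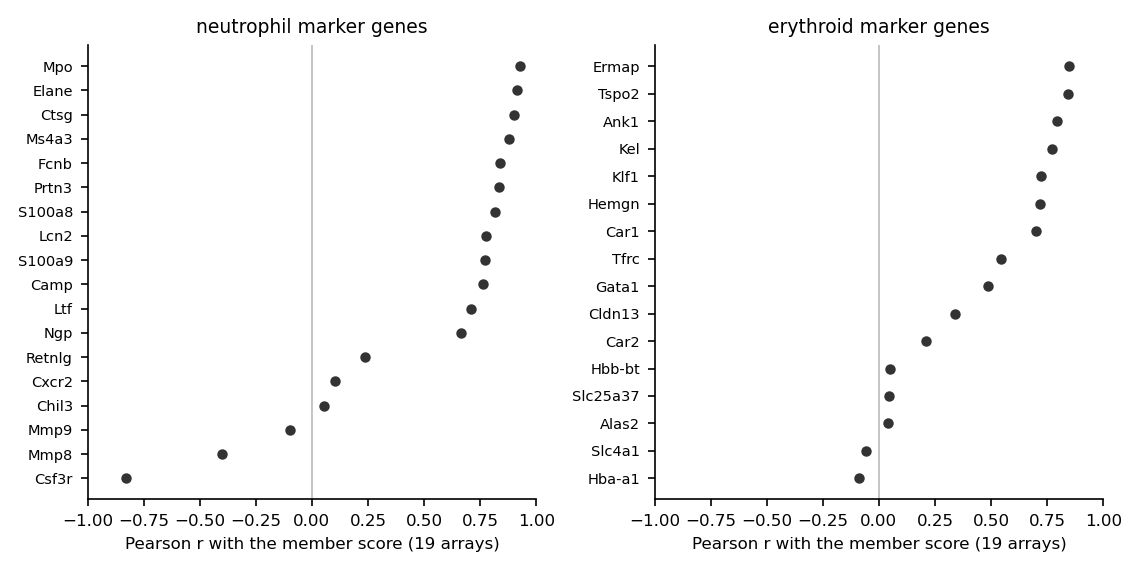
Pearson r of each tested neutrophil marker (left) and erythroid marker (right) with the score over the 38 members, over 19 arrays without ptaquiloside mouse 4. The r run from 0.93 for Mpo to -0.83 for Csf3r among neutrophil markers and from 0.85 for Ermap to -0.09 for Hba-a1 among erythroid ones.

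After selenium 15 of 18 neutrophil markers were higher than in control, with a median of 0.63. Among them were Mpo (0.94 ± 0.42), Elane (1.01 ± 0.44) and S100a9 (0.52 ± 0.47), while Csf3r was at -0.66 ± 0.37. In limma 2 of the 18 had an unadjusted p under 0.05, each higher, where 1.05% of all genes did in either direction. The summed level of the 18 genes ran from 8.14 to 9.09 in control, 7.24 to 8.69 after ptaquiloside, 8.55 to 9.76 after both and 8.36 to 10.01 after selenium, on the log2 scale. At least 12 of the 18 were well above background on every array, so none of the groups was free of them. Of the 16 erythroid markers 10 were higher after selenium, near the 52.7% of all genes, with a median of 0.13 and 0 at an unadjusted p under 0.05 in limma, and their summed level ran from 4.89 to 5.67 in control and 4.99 to 5.64 after selenium.

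Markers of other cell types were set beside these. After selenium all 16 B cell and all 13 T cell markers had lower means than in control (medians -0.91 and -0.30). So did 14 of 20 macrophage and monocyte markers (-0.38), where 52.7% of all genes were higher. In limma 1 B cell, 1 T cell and 3 macrophage and monocyte markers had an unadjusted p under 0.05, all lower. Of all genes 1.05% did, in either direction. Of the 16 NK markers 15 were higher (0.18), and so were all 12 platelet markers (0.20). After ptaquiloside 17 of 18 neutrophil and 12 of 16 erythroid markers were lower than in control (medians -0.44 and -0.41). Of all genes 49.7% were higher. After both compounds 17 of 18 neutrophil and 15 of 16 erythroid markers were higher than after ptaquiloside (0.80 and 0.51). Of all genes 51% were higher. These values include the weak array of ptaquiloside mouse 4 on slide 4 and are not given without it. Its neutrophil score was -1.08 and its erythroid score 0.05. After ptaquiloside the neutrophil score was below control on all 5 slides, the erythroid score on slides 2, 3 and 5. After both compounds the neutrophil score exceeded ptaquiloside on all 5 slides, the erythroid score on all but slide 4.

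With the neutrophil score as a covariate, an alternative chosen after the data were seen, the medians for selenium against control were 0.24 for S phase and 0.23 for G2/M genes, with 35 of 38 members higher and 0 at an unadjusted p under 0.05 in limma, where 0.835% of all genes were. For the combined treatment against ptaquiloside they were -0.09 and -0.18, and for ptaquiloside against control 0.09 and 0.27. With the erythroid score instead, the medians for selenium against control were 0.67 and 0.71, with 16 members and 1.61% of all genes at an unadjusted p under 0.05. For the combined treatment against ptaquiloside they were then 0.35 and 0.07. The scores are built from the same arrays, and what part the cells behind these markers have in the members' differences was not tested.

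Outside the cell cycle lists, the gene whose level followed the member score most closely over 19 arrays was Shcbp1 (r = 0.99). Tyms-ps, listed as a pseudogene of Tyms and open to shared signal from it, Kntc1, Cenpp, Pask, Cenph, the unnamed probe A_52_P716675, Cdkn3, Ska1 and Cmss1 came next, with r from 0.97 to 0.95. Of 17186 genes outside these lists with a value on every array, 276 had r above 0.8 and 49 above 0.9.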

How the data were processed

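RNA of 20 spleen NK cell samples, 1 per mouse, was hybridised to 1-colour Agilent arrays read with Agilent Feature Extraction 9.5.3.1, per the submitters' processing notes. The deposited scanner files hold spot intensities; the processed signal used here is background-subtracted and detrended within each array, per the file headers, and is not scaled between arrays. The number of arrays and the signal over background limit the precision, since no read depth exists. The deposited value table holds log2 processed signals plus a constant of 19.93, with no scaling between arrays, as set against the scanner files; 1 control and 1 ptaquiloside column in it are means of the other columns, so it served only as an alternative.

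Here control spots and spots with outlier marks were left out, spots of a probe were averaged, and log2 of the signal minus the array's 75th percentile was taken. Of 41174 probes, 25097 were named through RefSeq accessions and the rest kept the file's name. Each gene was represented by its brightest probe well above background on at least 5 arrays, which left 17481 genes. The gene positions are those the files give on mm9, and exon annotation was not used here.

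Group means were fitted over all 20 arrays with limma 3.58.1 (lmFit, eBayes) in R 4.3.3, with two-sided p-values adjusted by the Benjamini-Hochberg method over all genes in each comparison, and a threshold of 0.05. The fit was tested on simulated data with independent noise. These held no slide effect, weak array or correlation between genes, so they do not show how it behaves with those. Named in each comparison are the 3 genes of each phase with the smallest unadjusted p (5 for selenium against control), and the extremes of level and spread in control. The members and all lists were chosen with earlier results of these data known. The marker lists were erythroid, neutrophil, B cell, plasma cell, T cell, macrophage and monocyte, dendritic, platelet, basophil and mast cell, NK and progenitor.

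The mouse number is the slide, a batch holding 1 array of each group. Deviations of same-numbered arrays correlated at a median of 0.445 (range -0.344 to 0.711), above 0.1 in 24 of 30 pairs, and those of arrays with other numbers at -0.0803. Not every pair passed 0.1 and the mice are different animals, so the numbers were not taken to pair mice. They do mark shared slides, and the fit without the slide stands beside the fit with the slide as a block for each comparison. The standard errors and the choice of named genes come from the fit without the slide. Other alternatives were median and quantile scaling, normexp background correction with an offset of 50, other filters and probes, array weights, the methods' t-test and each array left out. The marker scores as covariates, and ptaquiloside mouse 4 and selenium mouse 5 left out together, were chosen after seeing the data.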

Additional observations from a re-analysis of the deposited data

Results flagged for a closer look

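In each group of 5 mice, the gap between the highest or lowest mouse and its nearest neighbour was divided by the group's range. In 39 of 168 groups (38 members and the scores) it passed the critical value of 0.71, which chance alone passes in about 1 of 20. The members vary together and the scores are their means, so the 168 are not independent. The count of 39 therefore cannot be judged against that rate. All values are levels or scores on the log2 scale, and no cause was tested.

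Selenium mouse 5 was the low one in 21 of the 39. It had an S phase score of -0.51, a G2/M score of -0.78 and a score over all members of -0.66. Its S phase genes read -0.41 for Ccne1, -2.71 for Cdc6, -3.15 for Cdc45, 1.01 for Mcm2, 2.94 for Mcm7, 0.23 for Tyms and -0.38 for Tk1. Its G2/M genes read 1.72 for Mki67, -1.25 for Top2a, 1.30 for Birc5, -3.63 for Ccnb1, 0.98 for Cdca8, -1.94 for Bub1b and -0.43 for Plk1. The spindle genes Kif11, Kif20a, Nusap1 and Tpx2 read -3.89, -0.86, -1.44 and -2.35.

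Ptaquiloside mouse 4, whose array had the weakest signal, was the low one for Cdt1 (1.72), Mcm2 (-2.09), Mcm5 (0.010), Mcm6 (3.72), Pcna (1.21), Rrm1 (-0.081) and Stmn1 (2.02) and the high one for Plk1 (1.65). Combined-treatment mouse 1 was the high one for the G2/M score (0.84), the score over all members (0.70), Cdc6 (-1.19), Rrm1 (2.49), Tk1 (1.42), Ccnb1 (-1.54), Aurkb (-1.46) and Kif20a (0.84). Ptaquiloside mouse 2 was the high one for Bub1b (-1.17), and control mouse 3 was the low one for Bub1 (-1.10).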

How the results depend on the processing

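No alternative gave a member an adjusted p under 0.05 in any comparison. The medians for selenium against control were positive in both phases in every alternative. With the slide (mouse number) as a block, the members at an unadjusted p under 0.05 numbered 12 for selenium against control, 11 for the combined treatment against ptaquiloside and 1 for it against selenium. Array weights gave ptaquiloside mouse 4 a weight of 0.028 and combined-treatment mouse 5 one of 0.25, the next lowest. The methods' t-test over 43379 spots called 0 after adjustment, and 611, 1095 and 431 unadjusted for ptaquiloside, selenium and both against control, with 0, 3 and 3 of 83 member spots.

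With the neutrophil score as a covariate the G2/M median for ptaquiloside against control was 0.274, and the medians for the combined treatment against ptaquiloside were -0.0896 (S phase) and -0.176 (G2/M). The S phase interaction median was -0.436 with array weights and -0.497 without ptaquiloside mouse 4 and selenium mouse 5, and the G2/M one was -0.711 with the erythroid covariate. Scaling to the array median gave r of 0.827 between the S phase and erythroid scores and 0.960 with the neutrophil score, and moved the median of all genes by -0.236 for ptaquiloside against control and 0.197 for the combined treatment against ptaquiloside.

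For ptaquiloside against control, Cdt1 was 0.0225 without ptaquiloside mouse 4 (and without selenium mouse 5 as well), 0.0367 with the block added, 0.0136 with array weights and 0.0581 in the deposited table. Pcna was 0.00684 without mouse 4 (and without both), 0.00762 with weights and 0.0482 in the deposited table, and Stmn1 was 0.0219 with weights. With each array left out, Cdt1 ran from -0.817 to 0.0225 and Pcna from -0.866 to 0.00684. The interaction of Cdt1 was -0.0756 without mouse 4, -0.0898 with the block added, -0.130 without both arrays and -0.111 in the deposited table, and ran from -0.0756 to 0.764 with each array left out. That of Top2a was -0.450 with weights, -0.311 without both arrays and -0.0717 in the deposited table. In the fit to the deposited table ptaquiloside mouse 4 and control mouse 1 took no part, and the cause of the other changes was not tested.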
